A study of Danio rerio with 2 samples.

Results

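The stretches described here are dense groups of open chromatin regions that 2 zebrafish melanoma cell lines, zcrest 1 and zcrest 2, held in common. Open regions were found by ATAC-seq, which uses a transposase to tag DNA that is not packed into nucleosomes. The regions of both lists on chromosomes 1 to 25 were merged where they overlapped by at least 1 bp, which gave 81157 union intervals, and intervals with gaps of at most 12500 bp were joined into clusters. A cluster of 10 or more intervals was called dense, and a dense cluster was called shared where at least 70% of its intervals held a region of both lines. There were 69 shared dense clusters among 540 dense ones (12.8%), and they held 921 of the 81157 intervals (1.13%). The other 471 dense clusters, with 6058 intervals, had less than 70% of intervals in common and are the comparison used below. The members were thus chosen by the positions of the called regions in both lists, so the number, density and sharing of the intervals are descriptions and support nothing.

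Each line was sampled once, from 50000 cells, and had been kept for more than 20 passages. The genotype labels of both lines name p53, BRAF and Na, the reporter crestin:EGFP and MiniCoopR alone, and what Na stands for, the form of the p53 and BRAF alleles and the promoters were not given in the sources used here. Crestin is a zebrafish gene active in the neural crest, the embryonic cell population that gives rise to melanocytes, and MiniCoopR is a vector that carries a copy of mitfa, the master regulator gene of melanocytes. With 1 library per line there was no replicate check, no p-value was computed, and every comparison between zcrest 1 and zcrest 2 is one between these libraries. The lists held 63332 regions in zcrest 1 and 53129 in zcrest 2 on these chromosomes. Positions are given in build Zv9, counted from 1. Genes near the clusters were not looked up, for want of a Zv9 annotation in the sources used here.

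Open chromatin marks promoters, enhancers and other regulatory elements, which transcription factors keep free of nucleosomes. Enhancers that serve cell identity genes often lie in groups along the chromosome, and groups with strong coactivator binding or acetylated histones are known as super-enhancers. Neither of these marks was measured in the libraries used here, so whether the dense clusters are enhancers was not tested. Large stretches of raised read depth can also hold many called regions, and the read depth around the members is therefore given before their other values.

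The shared dense clusters lay at the upper end of a broad range of sharing. Among the 540 dense clusters, 107 had from 50% to under 60% of their intervals in common and 75 had from 60% to under 70%. Above the threshold, 43 had from 70% to under 80%, 17 from 80% to under 90% and 9 had 90% or more. At 70% exactly stood 18 clusters, and the nearest cluster below was one on chromosome 6 at 59732995 to 59789308, with 9 of 13 intervals in common (69.2%). In 3 clusters every interval was held by both lines. The first lay on chromosome 25 at 694362 to 756042 and had 11 intervals. Another, at 28154472 to 28182803 of chromosome 16, also had 11, and the one at 60095516 to 60115816 of chromosome 5 had 10.

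**Figure D1:**
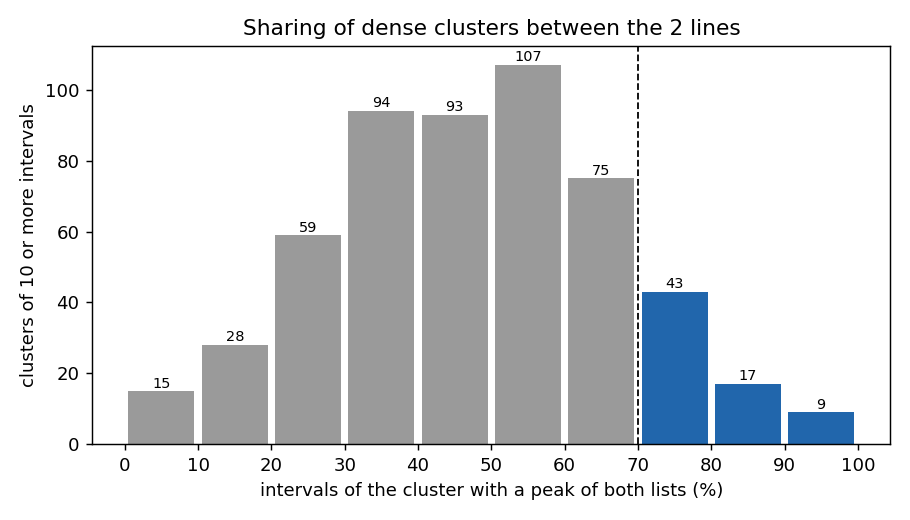
Number of dense clusters (10 or more union intervals, vertical axis) by the percentage of their intervals that held a region of both lines (horizontal axis, bins of 10 points, the last one including 100%). Blue bars are the 69 shared dense clusters at or above the 70% line, grey bars the 471 below it.

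The clusters were mostly small. They held 10 to 33 intervals with a median of 11, and 41 of 69 held 10 or 11. The spans ran from 20.3 kb to 120 kb with a median of 54.2 kb, against a median of 62.2 kb in the dense clusters below 70%. Neighbouring intervals were separated by a median of 3294 bp in the shared clusters (95% order-statistic interval 2889 to 3621, 852 gaps) and of 4859 bp below 70% (4738 to 4983, 5587 gaps). Such intervals, and the exact binomial ones given for shares, cover counting error only, and neighbouring regions are not independent. The closer spacing lay mainly in clusters of raised read depth, a measure that includes the reads of close neighbours, as given further below. All 69 clusters together spanned 3.92 Mb. Below 70%, the clusters with most intervals were as large but differed in sharing. One on chromosome 24 at 12338431 to 12466977 had 19 of 36 intervals in common, one at 26921776 to 27128971 of chromosome 18 had 10 of 33, and one at 51069242 to 51242127 of chromosome 3 had 0 of 34, 32 of them in zcrest 1 alone.

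They were spread over 21 of the 25 chromosomes. Chromosomes 1, 2, 5, 10 and 19 held 5 each, and chromosomes 9, 12, 15 and 22 held none, although these 4 had 14, 13, 13 and 16 dense clusters below 70%. Chromosome 8 had the largest share of its intervals in shared dense clusters, 2.40% (82 of 3418), followed by chromosome 21 with 2.07%, chromosome 10 with 2.02% and chromosome 1 with 1.95%. Chromosome 18 had 38 dense clusters below 70% and a single shared one.

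The 69 clusters were divided into 2 kinds by the read depth around their regions, at a limit set for this report. The local background of a region is the depth that the peak caller took as its surroundings, and it includes the region's own reads and those of close neighbours. In 17 of the 69 clusters its median over the cluster was at least 3 times the median of the list in both lines, or 24.6% (exact binomial interval 15.1% to 36.5%). Over all 540 dense clusters 6.85% were so, and among the 471 below 70% it was 20 clusters, or 4.25% (2.61% to 6.48%). The background includes the reads of the regions, and the limit had to be met in both lines. Shared clusters were chosen for regions in both lists, so their higher share can follow in part from the rule. In the 17 the background ran from 3.56 to 20.4 times the list's median in zcrest 1 and from 3.46 to 21.6 times in zcrest 2, with medians of 12.6 and 13.4. In the other 52 the medians were 1.44 and 1.16, and the highest values 2.99 and 3.38. The 17 clusters of raised background held 310 of the 921 intervals and included 9 of the 12 clusters with 20 or more. Of the 8 clusters described first below, those with most intervals and among equals the longest, 5 had a raised background.

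The 2 kinds differed in how the regions stood out from their surroundings. The summit pileup, the number of reads that overlap at the highest point of a region, had a median of 84.5 reads in zcrest 1 and 101 in zcrest 2 in the 17 clusters. In the other 52 it was 28 and 27 reads, and in the whole lists 18 and 19. The deposited fold enrichment over the local background ran the other way, with medians of 3.40-fold and 3.12-fold in the 17 clusters and of 6.44-fold and 5.82-fold in the 52. The whole lists stood between, at 5.79-fold and 5.03-fold. Fold enrichment is computed from the local background by which the 17 were set apart, so it is not an independent measure of them. A region must rise above that background to be called, so the higher pileup of the 17 also follows in part from the split. Intervals also lay closer in the 17, with a median gap of 1138 bp against 4735 bp in the 52. Of the gaps, 46.8% in the 17 and 15.4% in the 52 were 1 kb or less. The local background includes the reads of close neighbours, so the closer spacing of the 17 can also follow in part from the split. The 17 and the 52 are kept apart below.

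The cluster with most intervals lay on chromosome 8 at 36353405 to 36443149. It held 33 intervals, 25 of them in both lines, 2 in zcrest 1 alone and 6 in zcrest 2 alone. Its summit pileups summed to 2618 reads in zcrest 1 and 3291 in zcrest 2, the highest sum of any cluster in both lines. The local background was 14.5 and 15.4 times the list's median. The strongest interval in zcrest 1, at 36407579 to 36408737, had 198 reads there and 210 in zcrest 2, where it came second to the interval at 36421697 to 36422757 with 211.

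The next was on chromosome 16 at 20243779 to 20325310, with 32 intervals, 26 of them in both lines. The sums were 1657 and 2177 reads on a background of 6.10 and 6.61 times the median. Both lines had their strongest interval at 20298663 to 20299579, with 128 reads in zcrest 1 and 154 in zcrest 2. A cluster on chromosome 10 at 16773665 to 16812603 packed 23 intervals into 38.9 kb and had the second highest sum in both lines, 2257 and 2844 reads. A cluster on chromosome 2 at 18988227 to 19029198, with 21 intervals, held the member of highest -log10 q in zcrest 1. That region, at 19015285 to 19016069, had 262 reads in zcrest 1 and 246 in zcrest 2. By -log10 q it ranked 2 in the list of zcrest 1 and 14 in that of zcrest 2, and the summits lay 8 bp apart. The remaining cluster of raised background among the 8, on chromosome 18 at 29970619 to 30045644, had 21 intervals, 16 of them in both lines, and sums of 980 and 1373 reads. By summed pileup a cluster on chromosome 4 at 27869560 to 27924866, with 20 intervals and sums of 1896 and 2099 reads, ranked 4 among all clusters in zcrest 1 and 7 in zcrest 2. The chromosome 16 cluster in which every interval was shared had sums of 1681 and 1868 reads from only 11 intervals.

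The strongest single members were the same regions in both lines. The 5 members of highest -log10 q in zcrest 1 were also the 5 highest in zcrest 2, in another order. Besides the chromosome 2 region, chromosome 10 held a pair of them, one at 16740291 to 16740860 with 270 reads in zcrest 1 and 273 in zcrest 2 and one at 16751473 to 16752682 with 261 and 249 (positions as in zcrest 1). The region at 28154472 to 28156019 of chromosome 16 had 219 and 216 reads. The region at 40105839 to 40107532 of chromosome 17 had the highest pileup of all members, 299 reads in zcrest 1 and 293 in zcrest 2. All 5 lay in clusters of raised background.

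Among the 52 clusters without a raised background, the largest was on chromosome 1 at 4115942 to 4236185, the longest of all at 120 kb. It held 21 intervals, 18 of them in both lines and 3 in zcrest 1 alone. The sums were 612 reads in zcrest 1 and 807 in zcrest 2. In zcrest 1 the interval at 4218320 to 4219355 was strongest with 74 reads, and in zcrest 2 it had 75 and ranked second. In zcrest 2 the interval at 4134018 to 4134849 was strongest with 106 reads, where zcrest 1 had 33. The 3 intervals of zcrest 1 alone had 9, 15 and 9 reads.

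A cluster on chromosome 23 at 10559967 to 10655065 held 20 intervals, 17 of them in both lines. Both lines had their strongest interval at 10608020 to 10608813, with 67 reads in zcrest 1 and 63 in zcrest 2. Away from it the lines differed at single intervals in both directions. The interval at 10615078 to 10615591 had 48 reads in zcrest 1 and 14 in zcrest 2, and the one at 10586697 to 10587316 had 12 and 37. A cluster on chromosome 7 at 7228320 to 7292317 held 20 intervals, 16 of them in both lines, on a background of 2.96 times the median in zcrest 1 and 3.38 times in zcrest 2. It thus met the limit for a raised background in zcrest 2 only. Its strongest interval, at 7289266 to 7289900, was the same in both lines, with 63 reads in zcrest 1 and 106 in zcrest 2.

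**Figure D2:**
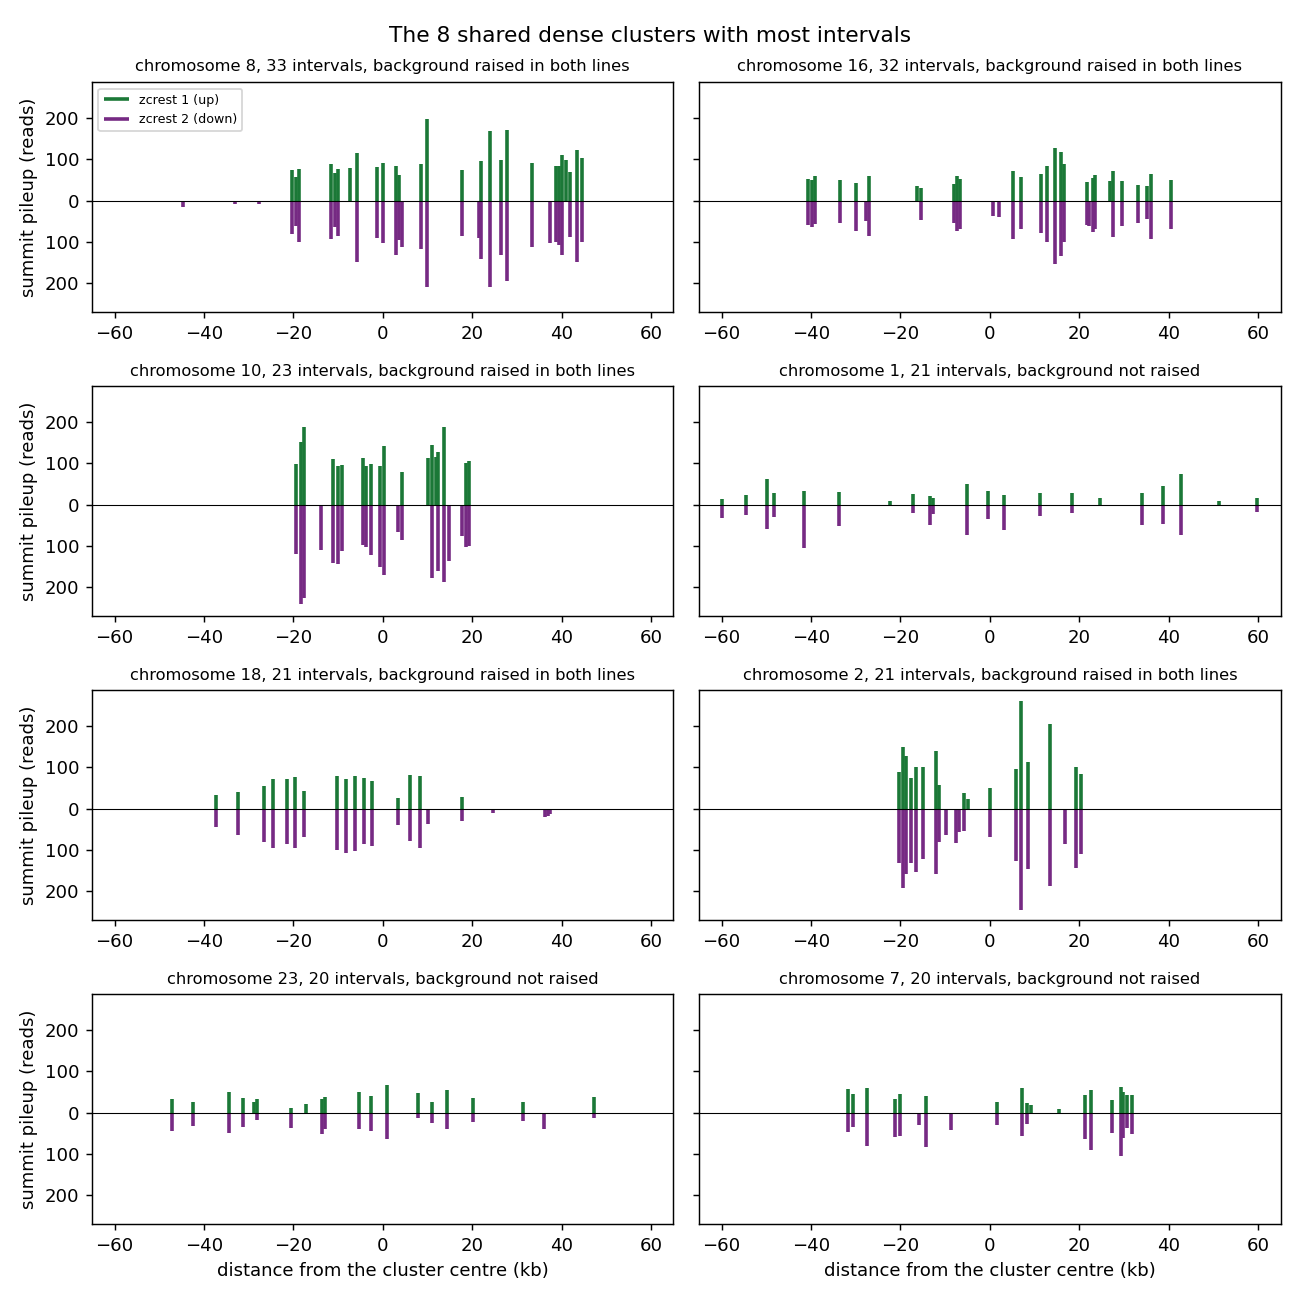
Summit pileup in reads (vertical axis, zcrest 1 upwards in green and zcrest 2 downwards in purple) of each union interval in the 8 shared dense clusters with most intervals, against the distance from the cluster's centre in kb. A missing bar means that no region was called. The 5 clusters of raised background reach up to 262 reads, and the 3 others, on chromosomes 1, 23 and 7, stay at or below 106.

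Summits of the lines lay close together in the members. The 719 regions of the shared dense clusters matched one to one had a median summit distance of 20 bp (order-statistic interval 17 to 24). Below 70% the median was 30 bp (27 to 33, 2475 pairs) and over all 33879 matched pairs 32 bp (31 to 32). Summits lay within 100 bp in 595 of the 719 pairs, or 82.8% (exact binomial interval 79.8% to 85.5%), where all matched pairs gave 76.5%. In the 17 clusters of raised background the median was 16 bp (13 to 19) and the share 88.8%. In the other 52 the median was 23 bp (18 to 29) and the share 79.5% (75.6% to 83.1%), against 80.1% (78.4% to 81.7%) in clusters below 70% without a raised background. Over all clusters below 70% the share was 79.6%, and that of those with a raised background is not given here. Whether the closer summits of the 17 go with their raised background or with their higher pileup was not tested. The matched regions of the 52 were also about as wide as elsewhere, with a median of 466 bp in zcrest 1 and 456 bp in zcrest 2, where all matched regions had 474 bp and 463 bp. The width of a pair's regions limits its summit distance, and the widths in the 17 are not given here. In single clusters the median distance ran from 3 bp, on chromosome 10 at 45223137 to 45309331, to 264 bp, on chromosome 16 at 36362024 to 36409575.

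**Figure D3:**
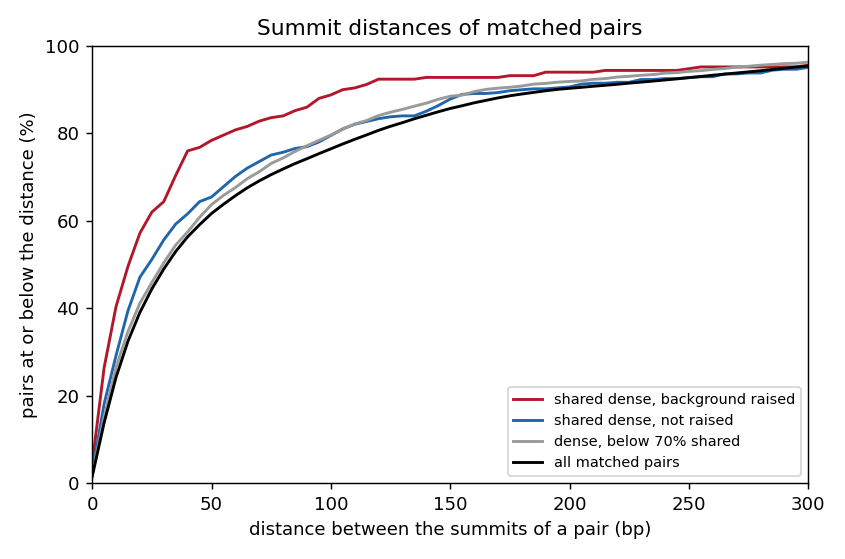
Cumulative percentage of matched pairs (vertical axis) by the distance between the summits of zcrest 1 and zcrest 2 in bp (horizontal axis), for the 17 shared clusters of raised background (red), the other 52 (blue), the dense clusters below 70% (grey) and all matched pairs (black). At 100 bp the red curve stands highest, at 88.8%, and the black one at 76.5%.

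A 2-fold difference between the lines in the reads at matched regions was rare in the clusters of raised background. In the others it was about as frequent as over all pairs. The ratio of summit pileups, zcrest 1 over zcrest 2, was set so that its median over all matched pairs was 1. A ratio past 2-fold in either direction was found in 82 of the 719 pairs, or 11.4% (9.17% to 14.0%), where 16.3% of all matched pairs were past it and 21.4% (19.8% to 23.1%) of those in dense clusters below 70%. In the 17 clusters it was 4 of 250 pairs, or 1.6% (0.438% to 4.05%), and in the 20 clusters of raised background below 70% it was 12 of 153, or 7.84% (4.12% to 13.3%). In the other 52 it was 78 of 469, or 16.6% (13.4% to 20.3%), near the 16.3% of all pairs, and in clusters below 70% without a raised background it was 22.3% (20.6% to 24.1%). Counting error of the pileups alone gives an SD of the log2 ratio of 0.24 in the 17 and 0.40 in the 52. Ratios past 2-fold are thus less likely in the 17 from their higher pileup alone. A region much weaker in one line can miss the calling threshold of that list, so sharing and the ratio are not independent. The lower shares than in clusters below 70% can thus follow in part from the rule. Of the 82 pairs, 64 were higher in zcrest 1 (8.90% of the 719 pairs, over all pairs 9.99%) and 18 in zcrest 2 (2.50%, over all pairs 6.31%). With the ratio of fold enrichment in place of pileup, 2.36% of the 719 pairs were past 2-fold. The share of all matched pairs by that measure is not given here, so 2.36% cannot be set beside the 16.3%.

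Of the groups given here, the lines ranked the members most alike in the 17 clusters of raised background. Across the 719 pairs, Spearman's rho of the pileup was 0.82, where the 2475 pairs of clusters below 70% gave 0.52 and all pairs 0.57. Over the 250 pairs of the 17 clusters it was 0.94, and over the 469 pairs of the other 52 it was 0.55, near the 0.57 of all pairs. These values describe regions of the same 2 libraries, and the difference in level between both kinds of cluster enters the value over all 719. Likewise, differences in level among the 17 enter their value of 0.94. Within single clusters the median rho was 0.89 in the 17 (0.68 to 0.98) and 0.69 in the 52 (-0.10 to 1.00). It was 0.66 in the 288 clusters below 70% that had at least 5 pairs. Counting error of the log2 ratio was smaller in the 17 than in the 52 (SD 0.24 against 0.40). Their higher rho, also within clusters, can thus follow in part from their higher pileup. The rho of the clusters of raised background below 70% is not given here.

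The strongest interval was the same one in both lines in 33 of the 69 clusters, or 47.8% (35.6% to 60.2%). Over all 540 dense clusters it was 46.3%, and in the 471 below 70% it was 46.1% (41.5% to 50.7%). The share was 8 of 17 with and 25 of 52 without a raised background. The strongest interval of zcrest 1 was among the first 3 of zcrest 2 in 55 of 69 clusters, and the strongest of zcrest 2 among the first 3 of zcrest 1 in 57. Below 70% these counts were 349 and 366 of 471. A place among the first 3 is more easily reached where the other line has few regions in the cluster. It cannot be reached where the interval holds no region of that line. The same holds for sharing the strongest interval, so clusters above and below 70% are not on a like footing here. In 2 clusters the strongest interval of zcrest 1 held no region of zcrest 2. One was on chromosome 1 at 59467738 to 59516749, where that interval had 43 reads, and one at 69279 to 114270 of chromosome 13, where it had 52. No strongest interval of zcrest 2 lacked a region of zcrest 1. Below 70% the counts were 74 and 36 of 471, and the rule itself makes them lower in the shared clusters. A single interval carried a median of 17.6% of the cluster's summed pileup in zcrest 1 and 18.0% in zcrest 2, against 21.8% and 24.8% below 70%. In the 17 clusters it was 11.7% and 10.4%, and in the 52 it was 18.7% and 20.2%. Such a share tends to be lower where a cluster holds more regions of the line. Low sharing leaves fewer of them below 70%, and the 17 held more intervals per cluster than the 52. Both differences can thus follow in part from the number of regions.

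Intervals held by a single line were 202 of the 921, 114 in zcrest 1 and 88 in zcrest 2. They were weaker than the shared intervals beside them. In the 52 clusters the median pileup of the 95 intervals of zcrest 1 alone was 19 reads and that of shared intervals 30. The 47 intervals of zcrest 2 alone had 17 reads and shared intervals 28. In the 17 clusters the 19 intervals of zcrest 1 alone had 57 reads and shared ones 85, and the 41 of zcrest 2 alone had 75 and shared ones 104. The single-line intervals of the 52 clusters were more often of zcrest 1 (95 against 47), as were those of all union intervals (28674 against 18637). In the 17 clusters they were more often of zcrest 2 (19 in zcrest 1 against 41 in zcrest 2), as in the 20 clusters of raised background below 70% (52 against 92). Single-line intervals held 7.36% of the summed pileup of zcrest 1 and 8.08% of that of zcrest 2 in all 69 clusters. Of these intervals, 31 of 202, or 15.3% (10.7% to 21.1%), were the first or last interval of their cluster, and 107 of 719 shared ones, or 14.9% (12.4% to 17.7%), were so. Whether such an interval was closed in the other line or fell below the calling threshold cannot be told apart in these lists.

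Summed over a cluster, the pileups of the lines went together mainly through the 17 clusters of raised background. Spearman's rho of the sums was 0.73 across the 69 clusters, 0.78 across the 17 and 0.39 across the 52, and it was 0.17 across the 471 clusters below 70%. The clusters share the libraries, and their sums rise with the number of intervals. Only called regions enter a sum, so low sharing can itself set the sums of the lines apart. The lower rho below 70% can thus follow in part from the rule. Ranked by this sum among all 34116 clusters of any size, 35 of the 69 came among the first 200 in zcrest 1 and 36 in zcrest 2, and 27 did so in both. All 17 clusters of raised background were among these 27, and 10 of the 52 were. Of the 471 clusters below 70%, 129 came among the first 200 in zcrest 1, 105 in zcrest 2 and 47 in both. The rule favours clusters with regions in both lists, so a place in both rankings follows in part from the choice. Regions called over a raised background must have a higher pileup, so the ranks of the 17 also follow in part from the split.

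**Figure D4:**
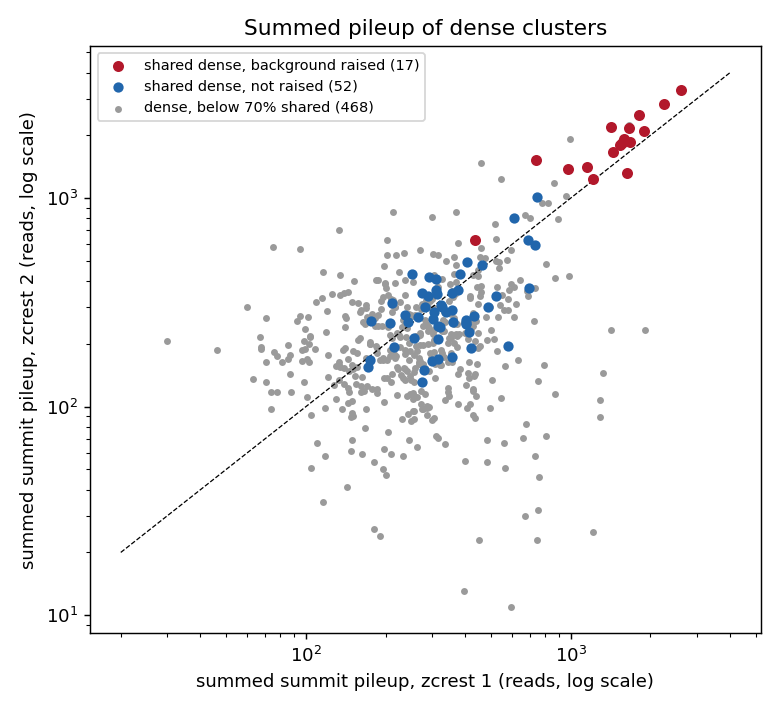
Summed summit pileup of each dense cluster in zcrest 1 (horizontal axis) and zcrest 2 (vertical axis), in reads on log scales, with the line of equal sums dashed. The 17 shared clusters of raised background (red) lie at the upper right, the other 52 (blue) within the range of the dense clusters below 70% (grey, 468 clusters with regions in both lists).

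The balance of the lines was also compared between clusters. The median log2 pileup ratio of a cluster, zcrest 1 over zcrest 2, ran from -0.67 to 1.33 over the 69, with 35 clusters above 0 and 34 below. In the 17 clusters of raised background 3 were above and 14 below, in the 52 it was 32 and 20, and below 70% it was 278 and 186. The ratio was centred on matched pairs and not on the background, which was 1.57 reads genome-wide in zcrest 1 and 2.01 in zcrest 2. The part of this difference in the counts of the 17 was not tested. The cluster median was past 1.5-fold in 14 of 69 clusters and past 2-fold in 3, against 163 and 61 of the 465 below 70% that had matched pairs. The intraclass correlation of the log2 ratio, the part of its variance that lies between clusters, was 0.39 in the 52 clusters, 0.25 in the 17 and 0.48 in clusters below 70%. With each ratio centred on its chromosome's median the order of the first pair turned, with 0.26 in the 52 and 0.54 in the 17, and 0.41 below 70%. This centring subtracts chromosome medians that some of the 17 did not follow, as given further below. The 0.54 can thus follow in part from the centring itself. The SD of the ratio within a cluster was 0.57 in the 52, where the counting error of the pileups alone gives 0.40. In the 17 it was 0.28, where counting error alone gives 0.24. Every pair lay on the same side of the genome median in 14 of the 69 clusters, against 74 of the 288 below 70% with at least 5 pairs. The 69 clusters held 719 pairs and the 465 below 70% held 2475, which is fewer per cluster. With fewer pairs, a cluster more easily has all of them on the same side or an extreme median. The rule on sharing is also not independent of the ratio, as given above.

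The largest shift to zcrest 1 was on chromosome 20 at 16145959 to 16214476. All 7 matched pairs had more reads in zcrest 1, with a median log2 ratio of 1.33 and an SD of 0.62. The pairs had 85, 73, 66, 60, 108, 37 and 62 reads in zcrest 1 and 36, 13, 15, 25, 61, 18 and 28 in zcrest 2, in order along the chromosome, so the values of the lines overlapped. The 3 intervals of zcrest 1 alone had 9, 59 and 23 reads. This cluster stood at the 70% threshold, with 7 of 10 intervals in common, and held 6 of the 82 pairs past 2-fold. Next came a cluster on chromosome 3 at 56029347 to 56065838 with 1.04, and a pair on chromosome 19, of which the one at 30400676 to 30465940 had 1.01 and the one at 29518189 to 29583017 had 0.99. The cluster at 50063518 to 50122434 of chromosome 7 had 0.98. None of these 5 had a raised background in either line.

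The largest shift to zcrest 2 was on chromosome 2 at 18573389 to 18595538, a cluster of raised background with 11 intervals. Its median log2 ratio was -0.67 and all 8 pairs were lower in zcrest 1. The background was 9.12 times the list's median in zcrest 1 and 21.0 times in zcrest 2. On chromosome 6 at 42535368 to 42599215 all 13 pairs were lower in zcrest 1, with a median of -0.64. They had 15 to 23 reads in zcrest 1 and 21 to 43 in zcrest 2, an even row of regions with no dominant one. The background there was 1.03 and 1.43 times the median. The cluster at 45427966 to 45480633 of chromosome 13 had a median of -0.61. Chromosome 1 held the other two of the lowest 5, with -0.61 for the cluster at 15280085 to 15324698 and -0.52 for that at 41578595 to 41647023.

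The shifts of the 52 clusters went with those of their chromosomes, and those of the 17, mostly on chromosomes near the genome median, less so. The median ratio of a cluster was set beside that of the matched pairs outside shared dense clusters on the same chromosome. Spearman's rho was 0.64 across the 52 clusters and 0.13 across the 17, and 0.54 across the 465 clusters below 70% that had matched pairs. Apart from those on chromosomes 16 and 18, the 17 lay on chromosomes whose other pairs had medians from -0.15 to 0.19. The 52 included clusters on chromosomes 1, 13, 19 and 23, with -0.29, -0.28, 0.47 and 0.48. The values of rho thus rest on unlike chromosomes, and clusters of the same chromosome share its value. The clusters lay on the same side of the genome median as their chromosome in 38 of 52 and 10 of 17 cases. On chromosome 19 the 42 member pairs had a median log2 ratio of 0.83 and the other pairs 0.47. On chromosome 16 the 2 clusters of raised background had -0.31 and -0.05 and the cluster at 36362024 to 36409575, without a raised background, had 0.78, where the other pairs had 0.59. On chromosome 2 the clusters of raised background had -0.67 and -0.31 and the other pairs 0.19. Centring on the chromosome's median in place of the genome's widened the SD of the log2 ratio over the 250 pairs of the 17 clusters, 0.41 against 0.32, and narrowed it over the 469 pairs of the 52, 0.67 against 0.73. The difference between the 2 kinds of cluster was not tested, and the part of the raised background in it was not tested.

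**Figure D5:**
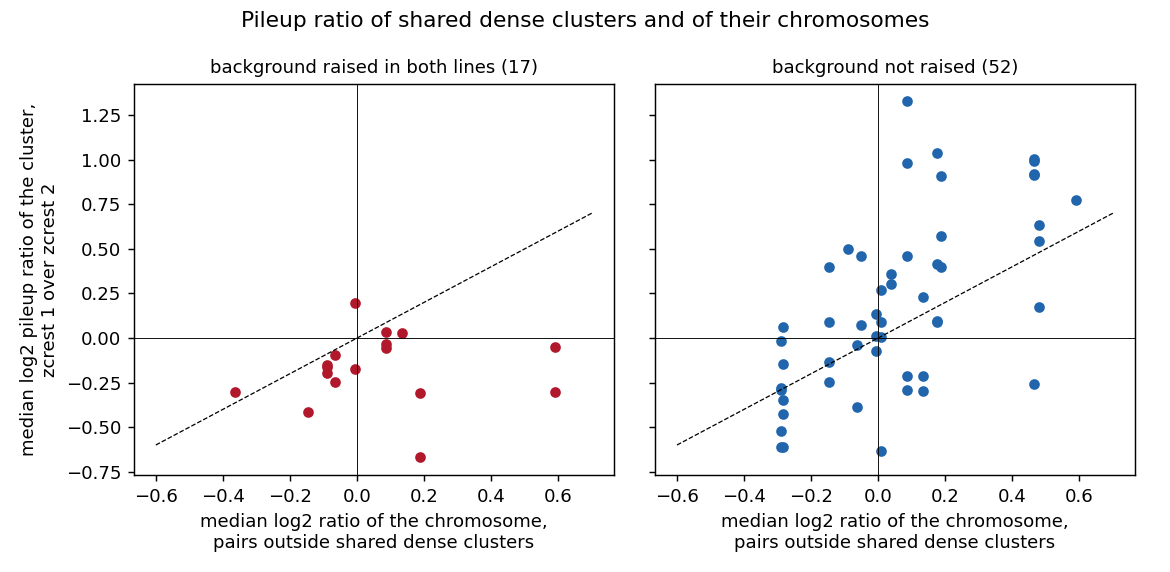
Median log2 pileup ratio, zcrest 1 over zcrest 2, of each shared dense cluster (vertical axis) against that of the matched pairs of its chromosome outside such clusters (horizontal axis), with equality dashed. The 17 clusters of raised background (left panel) lie between -0.67 and 0.20, most of them on chromosomes near the genome median. The other 52 (right panel) spread from -0.64 to 1.33.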

How the data were processed

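Per the submitters' processing notes, MACS2 2.1.0 and build Zv9 were used, and the peak names show that each library was called on its own. The sources used here do not give the aligner, the handling of duplicates, the read shift or the read totals. For every peak the authors deposited a score, the fold enrichment over the local background (a ratio), the -log10 of p and of q, and the offset of the summit. No deposited -log10 q was below 1.31 (zcrest 1) or 1.32 (zcrest 2), a threshold of 0.05 on the q-value.

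Summit pileup and local background were solved from the fold enrichment and the Poisson -log10 p of each peak over whole-number pileups up to 800, with a largest error of 0.000131. The genome-wide background so found, the lowest value, was 1.57 reads in zcrest 1 and 2.01 in zcrest 2, and it sets the depth that limits the calling of weak regions. Matched pairs are peaks that are each other's longest overlap. The strength of an interval is its highest pileup. Pileups and their sums were not scaled to the depth of the library, and only the ratio was centred. Medians carry order-statistic and shares exact (Clopper-Pearson) intervals of 95%. No test was run.

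The members and the rules for named regions were chosen with earlier results of these data known. Named were the 8 clusters of most intervals, the highest summed pileups, the 5 strongest members per line, the extremes of the ratio the 3 largest clusters below 70% and those nearest the threshold. Clusters of single chromosomes and intervals within named clusters were picked after their values were seen. Scripts ran in Python 3.11.15 with numpy 2.4.6, scipy 1.17.1 and pandas 2.3.3 and were tested on simulated data.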

Additional observations from a re-analysis of the deposited data

How the results depend on the processing

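No paired analysis was possible because each line had 1 library. All alternatives but the limits for a raised background were planned. Which stretches count as members depended on the rule. The 69 clusters with 921 intervals became 13 with 180 for gaps of at most 5 kb, 136 with 1897 for 25 kb, 18 with 366 for 15 or more intervals, 144 with 1866 at 60% sharing and 26 with 366 at 80%. They became 41 with 556 under a 50% reciprocal overlap, 28 with 365 where summits had to lie within 100 bp, and 33 with 450 for peaks with a -log10 q of at least 5. Lists of equal length gave 69 with 886, and leaving out clusters of raised background 52 with 611. The median summit distance, 20 bp, was 26 bp for 25 kb, 16 bp for 15 or more intervals, 25 bp at 60% and 16 bp for summits within 100 bp, which limits the distance by construction. The share of pairs past 2-fold, 11.4%, was 1.39% for 5 kb, 5.86% for 15 or more intervals, 14.4% at 60%, 5.72% for summits within 100 bp, 6.04% at a -log10 q of at least 5, 16.6% without raised background and 2.36% for fold enrichment, and the cause was not tested. The share of clusters with the same strongest interval, 47.8%, was 61.5% for 5 kb and 60.7% for summits within 100 bp, and 36.2% to 55.6% under the other 10. With a background of 2 or 5 times the median called raised, 20 or 14 of the 69 clusters were so in both lines, in place of 17.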

Other observations

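Some clusters of raised background lay near each other, as seen after the values were known. On chromosome 10 the clusters at 16726502 to 16760135 and 16773665 to 16812603 were 13.5 kb apart, just past the joining distance. The first had a median log2 pileup ratio, zcrest 1 over zcrest 2, of 0.20, the highest of the 17, and the second -0.18. On chromosome 2 the clusters at 18573389 to 18595538 and 18988227 to 19029198 were 393 kb apart, with ratios of -0.67 and -0.31. On chromosome 8 those at 35902751 to 35950487 and 36353405 to 36443149 were 403 kb apart, with -0.15 and -0.20.

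The 4 member intervals of highest pileup among those held by a single line were of zcrest 2 and lay in clusters of raised background, where the highest of zcrest 1 had 116 reads. The first, with a pileup of 184 reads, was on chromosome 7 at 54477238 to 54477559. The next, with 140 reads, was at 18585021 to 18585259 of chromosome 2. Without a raised background the highest pileup of a single-line interval was 59 reads in zcrest 1 and 43 in zcrest 2.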
